A study of Mus musculus with 9 samples.

Results

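The smooth muscle and pericyte markers are 10 genes that mark the mural cells of blood vessels, taken by name. Acta2, Myh11, Tagln, Cnn1 and Myl9 belong to the smooth muscle contractile apparatus. Pdgfrb, Rgs5, Notch3, Cspg4 and Mcam are grouped here as pericyte genes. Whether their values in these whole hearts come from pericytes alone was not tested. All 10 were found by symbol among the 30142 genes of the array that a probe set with 1 gene symbol represents, each through 1 probe set. Expression was measured on 9 arrays of whole hearts from immunodeficient nude mice, all infarcted by permanently tying off the left anterior descending coronary artery and in chronic heart failure. Mice with an ejection fraction below 50% were treated 3 weeks after the infarct, and hearts were taken 6 weeks after treatment. There were 3 arrays of hearts given the extracellular vesicles that 500000 cardiovascular progenitor cells had secreted in 48 hours, 3 arrays of hearts given 500000 of the progenitor cells themselves, 2 arrays of hearts given the medium alpha-MEM (the control), and 1 array of a sham heart, in which the needle entered the muscle 3 times without injection. The sample titles carry an experiment number: vesicle array 1, cell array 1, control array 1 and the sham array belong to experiment 9, and vesicle arrays 2 and 3, cell arrays 2 and 3 and control array 2 to experiment 1. They also carry a VTS number of unstated meaning, which is 3 on the arrays of experiment 9. Vesicle array 3 and cell array 3 carry VTS number 2, and the other arrays of experiment 1 carry VTS number 1. No control array carries VTS number 2. The labels do not say whether every array comes from its own animal, so p-values measure only the spread between these arrays, which may be technical.

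Mural cells wrap the endothelial tube of blood vessels: smooth muscle cells in layers around arteries, arterioles and veins, and pericytes singly along capillaries. Smooth muscle contracts when the myosin light chain is phosphorylated and myosin pulls on alpha actin filaments, and the genes of this apparatus are classical targets of serum response factor (SRF) and its partner myocardin, which act through a promoter element called the CArG box. Endothelial platelet-derived growth factor B recruits pericytes through the receptor encoded by Pdgfrb, and Notch3 receives signals from Jagged ligands on the endothelium. In an infarct scar, Acta2 and Tagln are also made by myofibroblasts, the contractile form of activated fibroblasts.

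The promoter windows of 3 contractile genes are shown because the contractile members all had fitted values lower in experiment 9 than in experiment 1, short of the test over all genes. Each window runs from 250 bases before to 50 bases after the annotated transcript start (RefSeq, GRCm38.p6), 5′ to 3′ on the gene's own strand, with CArG boxes, or CArG boxes in which 1 of the 6 central bases is G or C, in capitals. Acta2 lies at chr19:34255324-34255623 on the minus strand, Cnn1 at chr9:22099003-22099302 on the plus strand and Myl9 at chr2:156775214-156775513 on the plus strand.
Acta2: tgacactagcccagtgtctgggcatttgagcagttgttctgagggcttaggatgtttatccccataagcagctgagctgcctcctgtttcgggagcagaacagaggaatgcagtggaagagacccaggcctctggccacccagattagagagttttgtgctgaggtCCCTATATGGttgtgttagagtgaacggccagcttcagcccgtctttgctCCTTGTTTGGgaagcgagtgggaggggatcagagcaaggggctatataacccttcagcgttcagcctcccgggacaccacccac
Cnn1: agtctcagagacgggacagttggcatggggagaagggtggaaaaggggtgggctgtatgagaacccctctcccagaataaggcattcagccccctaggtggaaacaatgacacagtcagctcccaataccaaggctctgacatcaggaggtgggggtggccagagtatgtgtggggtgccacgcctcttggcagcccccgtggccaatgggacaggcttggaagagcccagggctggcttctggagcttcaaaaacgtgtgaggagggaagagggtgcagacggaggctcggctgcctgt
Myl9: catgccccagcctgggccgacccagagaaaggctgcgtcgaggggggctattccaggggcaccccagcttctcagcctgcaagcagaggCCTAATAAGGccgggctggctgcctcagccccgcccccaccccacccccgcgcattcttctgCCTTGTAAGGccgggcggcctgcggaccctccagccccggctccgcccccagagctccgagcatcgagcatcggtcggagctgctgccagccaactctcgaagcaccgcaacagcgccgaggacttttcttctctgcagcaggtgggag
The Acta2 window held a pair of CArG boxes with 1 substituted base, starting at positions -84 and -34 from the transcript start. The Myl9 window held a full CArG box starting at -161 and a substituted one starting at -99, and the Cnn1 window held neither. Over both strands, a full CArG box was present in 1.63% and a substituted one in 8.5% of 32851 promoter windows of the same length. Of the 10 members, 7 had a window that was searched (Acta2, Cnn1, Myl9, Rgs5, Notch3, Cspg4 and Mcam). The search over members skipped windows of 1 chromosome, which the shares over all windows include. Only Acta2 and Myl9 among these 7 held a box of either kind. None of the 7 held GTGGGAA, the core bound by the Notch partner RBPJ, which 6.38% of all windows held. The E-box CANNTG was found in 5 of the 7 and in 72.3% of all windows. A match describes these letters only and is not a measured binding site.

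Most of the markers were measured above background in these hearts. Deposited values are normalized log2 expression summaries per probe set, and background was set on each array at the 95th percentile of its negative controls, which lay between 7.18 and 7.28. Of the 10 markers, 8 exceeded it on all 9 arrays, whereas Cnn1 (6.33 to 6.90) and Cspg4 (6.92 to 7.11) exceeded it on 0 of 9. Vesicle array 3 stood apart by lung transcripts: Sftpc, the surfactant protein C gene, read 9.75 there, against 4.28 to 4.52 on the other injected hearts and 6.35 on the sham heart. Its mean over 8 lung markers was 7.04, against 5.02 to 5.12 on the other injected hearts and 5.37 on the sham heart. Lung tissue has smooth muscle and pericytes of its own, so marker differences from controls without vesicle array 3 are given where they bear on a result. Means of 9 cardiomyocyte markers ran from 11.56 to 11.71 over the arrays, and 8 skeletal muscle markers averaged 5.62 to 5.66 with none above background. Vesicle array 3 also had the highest mean of 8 mesothelial markers, none above background (6.24, against 5.85 to 6.08 elsewhere).

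The contractile genes were lowest on arrays of experiment 9 and highest on arrays of experiment 1. Acta2, which encodes smooth muscle alpha actin, read 9.39, 10.41 and 10.24 on vesicle arrays 1 to 3, 9.12, 9.81 and 10.29 on cell arrays 1 to 3, 9.08 and 9.81 on control arrays 1 and 2, and 9.56 on the sham array. Within each group its lowest array was the one of experiment 9. Myh11, the smooth muscle myosin heavy chain and the most specific marker of the set, read 7.84, 7.90 and 8.08 after vesicles, 7.77, 8.005 and 8.08 after cells, 7.75 and 7.80 in controls and 7.90 in the sham heart. Tagln, the actin-binding protein transgelin (SM22 alpha), read 7.47, 7.66 and 7.81 after vesicles, 7.40, 7.74 and 7.80 after cells, 7.33 and 7.65 in controls and 7.74 in the sham heart. For both genes the vesicle and cell groups overlapped each other. Cnn1, the actin- and calmodulin-binding protein calponin, stayed under the negative control limit at 6.33, 6.59 and 6.74 after vesicles, 6.36, 6.78 and 6.90 after cells, 6.34 and 6.62 in controls and 6.57 in the sham heart. Myl9, the regulatory light chain of smooth muscle myosin, read 8.28, 8.65 and 8.50 after vesicles, 8.25, 8.53 and 8.87 after cells, 8.27 and 8.37 in controls and 8.47 in the sham heart. For all 5 contractile genes the lowest of the 9 arrays was one of experiment 9 and the highest one of experiment 1. How many of all genes share this order was not counted.

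The pericyte genes followed no common order. Pdgfrb, the receptor for platelet-derived growth factor B, read 9.06, 9.04 and 8.91 after vesicles, 8.77, 8.86 and 8.89 after cells, 8.84 and 8.74 in controls and 8.78 in the sham heart. Its 3 vesicle arrays were the highest 3 of the 9. Rgs5, a regulator of G protein signalling that is abundant in pericytes, read 11.35, 10.94 and 10.82 after vesicles, 10.92, 10.95 and 11.06 after cells, 11.10 and 10.83 in controls and 10.83 in the sham heart, so that vesicle array 1 held the highest value and vesicle array 3 the lowest. Mcam, the adhesion molecule CD146, read 7.82, 7.95 and 7.84 after vesicles, 7.71, 8.01 and 7.86 after cells, 7.77 and 7.71 in controls and 7.57 in the sham heart. Notch3 spanned 7.60 to 7.68 over the 9 arrays, a range of 0.076. Cspg4, the proteoglycan NG2 on the pericyte surface, had the very same value of 7.04 on 5 of 9 arrays, among them all 3 vesicle arrays, and Notch3 the same 7.67 on 3 arrays, both control arrays among them. Such ties are a feature of the deposited table and narrow the spread of these genes.

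**Figure D1:**
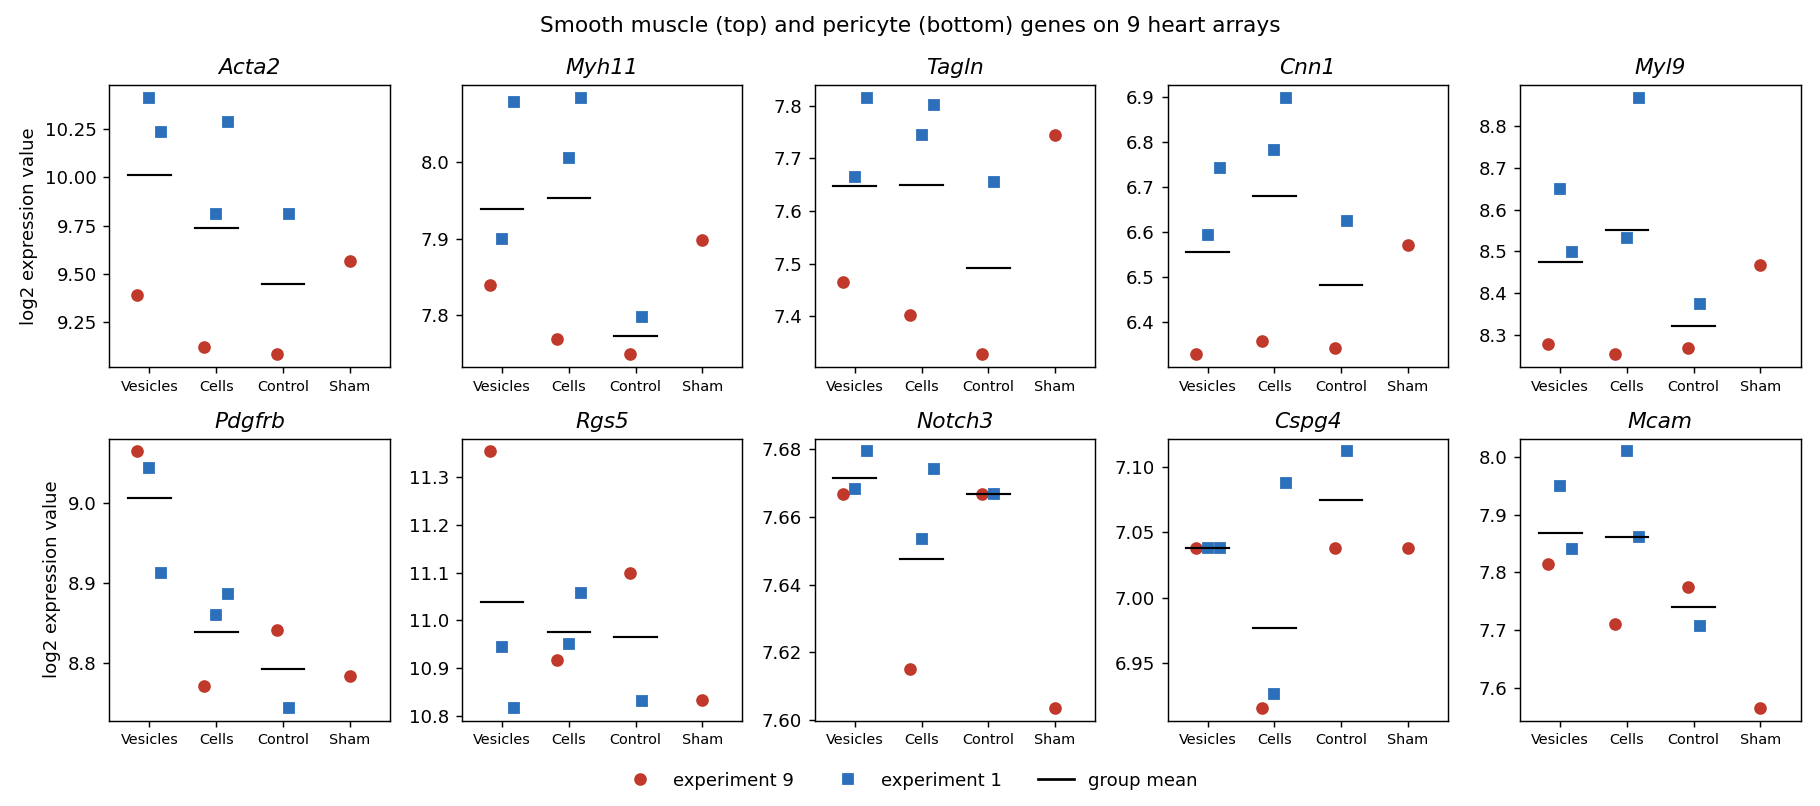
Log2 expression value (y axis, a separate scale in each panel) of the 10 markers on each array, by group (x axis), with contractile genes in the top row and pericyte genes in the bottom row. Circles are arrays of experiment 9, squares arrays of experiment 1 and bars group means; within each injected group the experiment 1 points of Acta2 lie above the experiment 9 point, and the 3 vesicle points of Pdgfrb lie above all others.

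The first comparison set hearts given vesicles against those given medium. On all 3 vesicle arrays Pdgfrb and Acta2 lay above the medium control of the same experiment, but neither passed the test over all genes. Acta2 on vesicle array 1, of experiment 9, was below control array 2, of experiment 1, so its groups overlapped, while those of Pdgfrb did not. Pdgfrb averaged 9.01 ± 0.082 after vesicles (SD, n = 3) and 8.79 ± 0.068 in controls (SD, n = 2), and the fitted log2 difference was 0.22 ± 0.065 (SE), or 1.16-fold, with a 95% interval from 0.052 to 0.38. Against the control of the same experiment the 3 arrays stood at 0.22, 0.30 and 0.17. Acta2 averaged 10.01 ± 0.55 after vesicles and 9.44 ± 0.51 in controls, with a fitted difference of 0.42 ± 0.16, or 1.34-fold (interval 0.027 to 0.82), and array differences of 0.31, 0.61 and 0.43 within experiments. The limma adjusted p over all 30142 genes was 0.676 for both. Unadjusted p-values were 0.0195 for Pdgfrb and 0.0404 for Acta2. Without vesicle array 3, the one with lung transcripts, the differences were 0.26 for Pdgfrb and 0.46 for Acta2. In whole hearts, more cells of a type and more RNA per cell cannot be told apart.

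The other 8 markers stood closer to the controls after vesicles. Myh11 differed by 0.14 ± 0.076, Tagln by 0.10 ± 0.053, Myl9 by 0.10 ± 0.13, Mcam by 0.11 ± 0.084 and Rgs5 by 0.11 ± 0.14. Cnn1 (0.0091 ± 0.073), Notch3 (0.0012 ± 0.020) and Cspg4 (-0.046 ± 0.053) were near 0. The interval for Rgs5 ran from -0.25 to 0.47 and that for Myl9 from -0.22 to 0.43, which leaves their direction unsettled at this number of arrays. Limma called 0 of 10 markers, as it called 0 of all 30142 genes (0%), with 2 of 10 markers against 6.44% of all genes at an unadjusted p under 0.05. The fitted difference was above 0 for 9 of 10 markers and for 39.2% of all genes, with a median of 0.11 over the markers and -0.012 over all genes. All 3 vesicle arrays exceeded the control of their experiment for 6 of 10 markers and for 10.6% of all genes, and all 3 lay below it for 0 of 10 markers and 18.3% of all genes. The count over all genes depended on control array 1, without which limma called 823 genes and 0 markers. Without vesicle array 1 the Rgs5 difference was -0.052, and without control array 2 those of Myl9 and Mcam were -0.040 and -0.0080. Leaving out vesicle array 3 made the Cnn1 difference -0.023, and the counts above include that array. With the sham array counted among the controls, Tagln stood at -0.013 and Cnn1 at -0.068.

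All 9 measured fibroblast markers were above controls after vesicles, against 39.2% of all genes, with a median of 0.14, none passing the test. This count includes vesicle array 3. Their mean level was 9.28 to 9.41 on vesicle arrays and 9.12 to 9.24 on control arrays. Postn, the periostin gene of activated fibroblasts, stood at 0.40 ± 0.12 (adjusted p = 0.676). Of the 8 activated fibroblast markers it belongs to, 5 were above controls and 3 below (median 0.14), none passing, and their mean was 7.63 to 7.83 on vesicle arrays and 7.39 to 7.75 on control arrays. Their part in the Acta2 and Pdgfrb values was not tested. Endothelial markers had mean levels of 8.59 to 8.61 after vesicles and 8.50 to 8.59 in controls, with 7 of 9 above controls.

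In hearts given progenitor cells no marker passed the test against medium controls. The fitted differences were 0.15 ± 0.16 for Acta2, 0.15 ± 0.076 for Myh11, 0.10 ± 0.053 for Tagln, 0.13 ± 0.073 for Cnn1 and 0.18 ± 0.13 for Myl9, with 3 cell and 2 control arrays. For the pericyte genes they were 0.050 ± 0.065 for Pdgfrb, 0.046 ± 0.14 for Rgs5, -0.023 ± 0.020 for Notch3, -0.11 ± 0.053 for Cspg4 and 0.10 ± 0.084 for Mcam. None of the 10 markers passed (lowest adjusted p = 0.682), nor did any of 30142 genes (0%), and 0 of 10 markers against 6.73% of all genes had an unadjusted p under 0.05. Differences were above 0 for 8 of 10 markers and for 44.2% of all genes, with medians of 0.10 and -0.0064. All 3 cell arrays exceeded the control of their experiment for 3 of 10 markers (Myh11, Tagln and Cnn1), against 8.86% of all genes, and all 3 lay below it for 1 (Cspg4), against 17.5% of all genes. Without control array 1 limma called 901 genes and 0 markers.

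The cell arrays also differed among themselves. Cell array 1, of experiment 9, was the lowest of the 3 cell arrays for all 10 markers. Cell array 3 was the highest for all 5 contractile genes and for 4 of 5 pericyte genes. The share of all genes with this order was not counted. Mean levels of fibroblast markers (9.05, 9.22 and 9.35 on cell arrays 1 to 3) and endothelial markers (8.52, 8.66 and 8.70) had the same order. The mean of cardiomyocyte markers did not (11.71, 11.60 and 11.61). Against the control of its experiment, cell array 3 stood at 0.48 for Acta2, 0.49 for Myl9 and 0.28 for Cnn1, whereas cell array 1 stood at 0.039, -0.014 and 0.015. Cell array 3 carries another VTS number than control array 2, so array and VTS number cannot be told apart in its differences. Acta2 on cell array 2 had the same deposited value as on control array 2, a difference of 0. Without cell array 3 the Rgs5 difference was -0.030, and without control array 2 those of Pdgfrb and Mcam were -0.0068 and -0.015. With the sham array among the controls Acta2 stood at -0.0062 and Tagln at -0.011. Cell array 3 also had the highest value of Srf (9.36, against 9.01 to 9.08 elsewhere), which encodes serum response factor. The same held for Myocd, the myocardin gene (8.66, against 8.38 to 8.44 elsewhere). It held as well for the listed regulators Klf4 (8.39, against 7.69 to 8.13) and Fhl2 (10.98, against 10.58 to 10.89). Hopx was highest on control array 1 (8.12) and Mrtfb on the sham array (8.40). How these regulators bear on the contractile genes was not tested.

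Between vesicle and cell hearts, Pdgfrb had the difference furthest from 0 among the pericyte genes. Its difference, vesicles minus cells, was 0.17 ± 0.058 or 1.12-fold, with an interval from 0.021 to 0.31 and an adjusted p of 0.92, and it was 0.29 in experiment 9 and 0.10 in experiment 1. Every vesicle array lay above every cell array for this gene. Acta2 differed by 0.27 ± 0.14 (interval -0.077 to 0.63), with 0.27 in experiment 9 and 0.28 in experiment 1, and its vesicle and cell arrays overlapped. Cnn1 differed by -0.12 ± 0.064, Myl9 by -0.076 ± 0.11, and Myh11, Tagln and Mcam by -0.014 ± 0.067, -0.0017 ± 0.047 and 0.0072 ± 0.074. Rgs5 stood at 0.44 in experiment 9 and at -0.12 in experiment 1. No marker passed and no gene of 30142 did (0%). At an unadjusted p under 0.05 there were 1 of 10 markers (Pdgfrb) and 4.34% of all genes. Differences were above 0 for 6 of 10 markers and 46.4% of all genes.

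**Figure D2:**
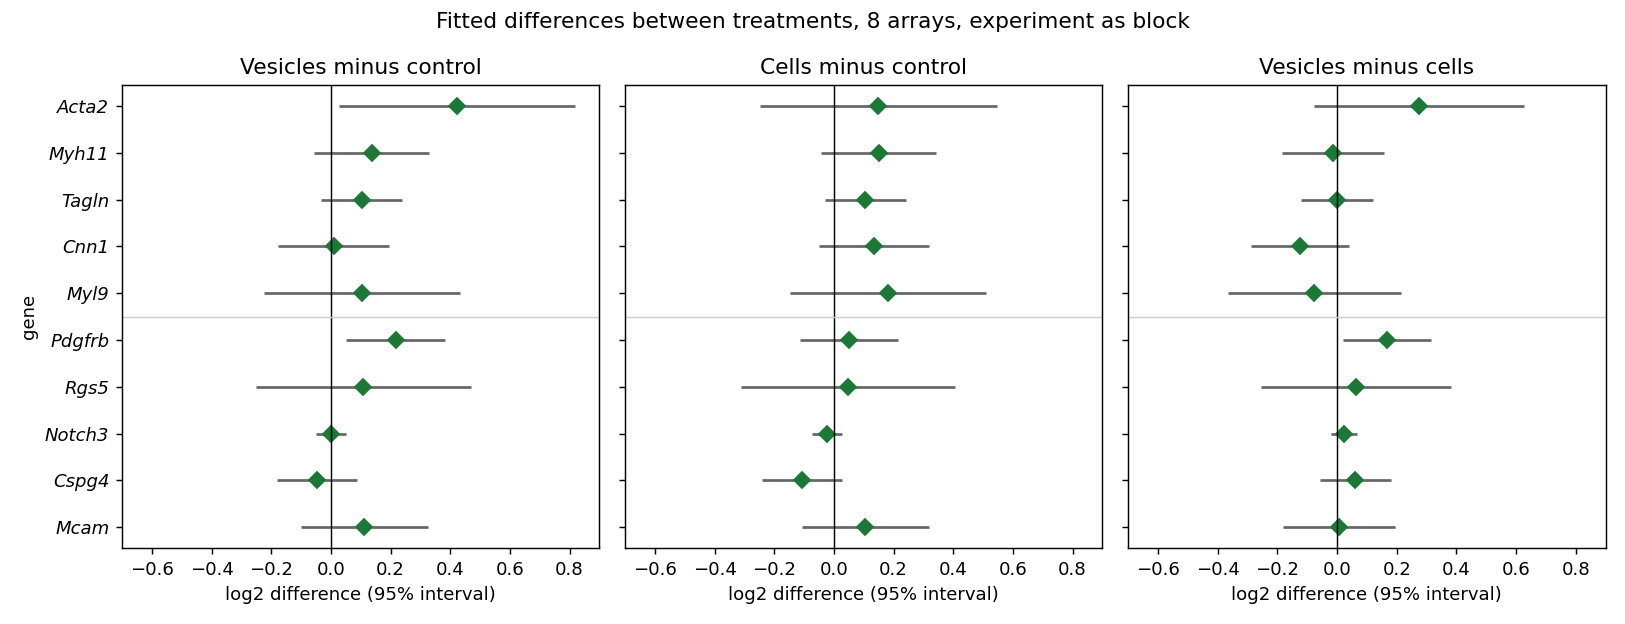
Fitted log2 difference (x axis) of each marker (rows, contractile genes above the grey line) for vesicles minus control, cells minus control and vesicles minus cells, as diamonds with 95% intervals from limma on 8 arrays. Only the intervals of Acta2 and Pdgfrb for vesicles minus control and of Pdgfrb for vesicles minus cells leave out 0, before any adjustment over genes.

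For the 5 contractile genes and Rgs5 the differences between experiments were further from 0 than any between treatments; for Pdgfrb, Notch3, Cspg4 and Mcam they were not. After adjustment for treatment, all 5 contractile genes were lower in experiment 9 than in experiment 1, while the pericyte genes lay on both sides. Acta2 averaged 9.29 ± 0.23 on the 4 arrays of experiment 9 (SD, sham included) and 10.11 ± 0.28 on the 5 of experiment 1. Its fitted difference on the 8 injected arrays, experiment 9 minus experiment 1, was -0.88 ± 0.13 (interval -1.19 to -0.56), a ratio of 0.545. For Cnn1 the difference was -0.38 ± 0.058, for Tagln -0.32 ± 0.043, for Myl9 -0.30 ± 0.10 and for Myh11 -0.17 ± 0.061. Pdgfrb differed by 0.021 ± 0.052, Rgs5 by 0.21 ± 0.11, Notch3 by -0.020 ± 0.016, Cspg4 by -0.053 ± 0.043 and Mcam by -0.092 ± 0.067.

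None of these differences passed over all genes. Adjusted p-values were 0.212 for Tagln, 0.213 for Acta2 and 0.228 for Cnn1, and limma called 0 of 30142 genes (0%), the smallest adjusted p of all being 0.212. At an unadjusted p under 0.05, 5 of 10 markers were lower in experiment 9, the 5 contractile ones, against 6.56% of all genes in that direction. All 4 experiment 9 arrays lay below all 5 experiment 1 arrays for Acta2 and Cnn1, 2 of 10 markers, and for 0.899% of all genes, and above them for 0 markers and 1.68% of all genes. Of these 2 markers Cnn1 was below background on every array. In the fit, 2 of 10 markers (Pdgfrb and Rgs5) and 41.8% of all genes were higher in experiment 9, and 5 markers against 12.8% of all genes had an unadjusted p under 0.05 in either direction. The median difference was -0.32 over the contractile genes, -0.020 over the pericyte genes and -0.010 over all genes. Leaving out any 1 array kept Acta2 between -0.94 and -0.80 and Tagln between -0.35 and -0.30. The titles give experiment 9 the VTS number 3 and experiment 1 the numbers 1 and 2, with no meaning stated, so experiment and VTS number cannot be told apart here. Activated fibroblast markers were lower in experiment 9 for 7 of 8 genes (median -0.31), macrophage markers for 8 of 8 (median -0.30), and cardiomyocyte markers were higher for 9 of 9 (median 0.072), all short of the test. Their part in the contractile difference was not tested.

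For no marker did the treatment difference pass a test of its change between experiments. In a fit with a mean for each treatment in each experiment, which leaves 2 residual degrees of freedom, the change in the vesicle difference between experiments was -0.21 ± 0.42 for Acta2 and -0.010 ± 0.11 for Pdgfrb. The largest for cells was -0.36 ± 0.14 for Rgs5 (adjusted p = 0.369), whose cell difference was -0.18 in experiment 9 and 0.17 in experiment 1. Limma called 0 markers and 0 genes (0%) in either form of this test, and 18.1% of all genes for vesicles and 18.8% for cells had an unadjusted p under 0.05, against 0 of 10 markers in both. The change, experiment 9 minus experiment 1, was above 0 for 3 of 10 markers and 53.2% of all genes in the vesicle form, and for 0 of 10 markers and 55.4% of all genes in the cell form. The values for the markers in each form share the same 2 control arrays, and in the cell form also cell array 1, the lowest cell array for all 10.

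**Figure D3:**
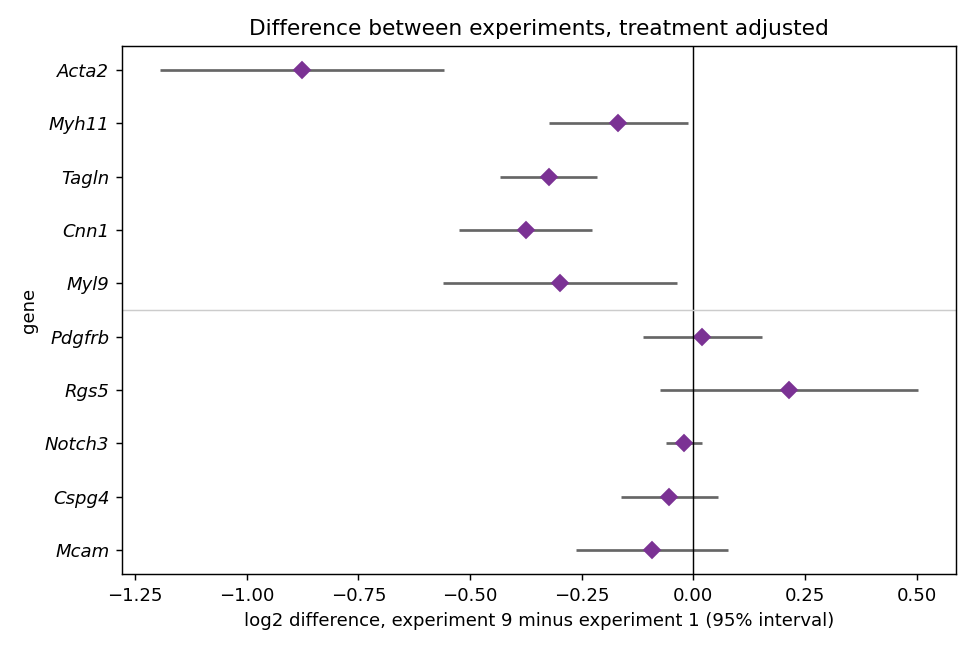
Fitted log2 difference between experiments (x axis, experiment 9 minus experiment 1, treatment adjusted) for each marker (rows, contractile genes above the grey line), with 95% intervals from limma on 8 arrays. The intervals of the 5 contractile genes lie below 0, Acta2 furthest at -0.88, and those of the 5 pericyte genes cross it.

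The sham heart was above the injected hearts of its experiment for the 5 contractile genes and below them for 3 of the 5 pericyte genes. With 1 sham array there is no test, and values are given beside the 3 injected arrays of its experiment. For all 5 contractile genes the injected hearts lay below the sham heart: Acta2 averaged 9.20 ± 0.17 on the injected arrays (SD, n = 3) against 9.56 in the sham heart, Tagln 7.40 ± 0.069 against 7.74, and Cnn1 6.34 ± 0.015 against 6.57. Myl9 averaged 8.27 ± 0.012 against 8.47, and Myh11 7.79 ± 0.047 against 7.90. Rgs5, Mcam and Notch3 went the other way, with injected means of 11.12 ± 0.22, 7.77 ± 0.052 and 7.65 ± 0.030 against 10.83, 7.57 and 7.60 in the sham heart. For Pdgfrb and Cspg4 the sham value lay within the injected values. All 3 injected arrays lay below the sham array for 5 of 10 markers and for 18% of all genes, and above it for 3 of 10 markers and 20.2% of all genes. The sham heart also had the highest mean of the activated fibroblast markers (7.93, against 7.38 to 7.83 on injected arrays) and the lowest mean of the endothelial markers (8.43, against 8.50 to 8.70), and its lung marker mean of 5.37 was above that of every injected array but vesicle array 3. Their part in these values was not tested.

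**Figure D4:**
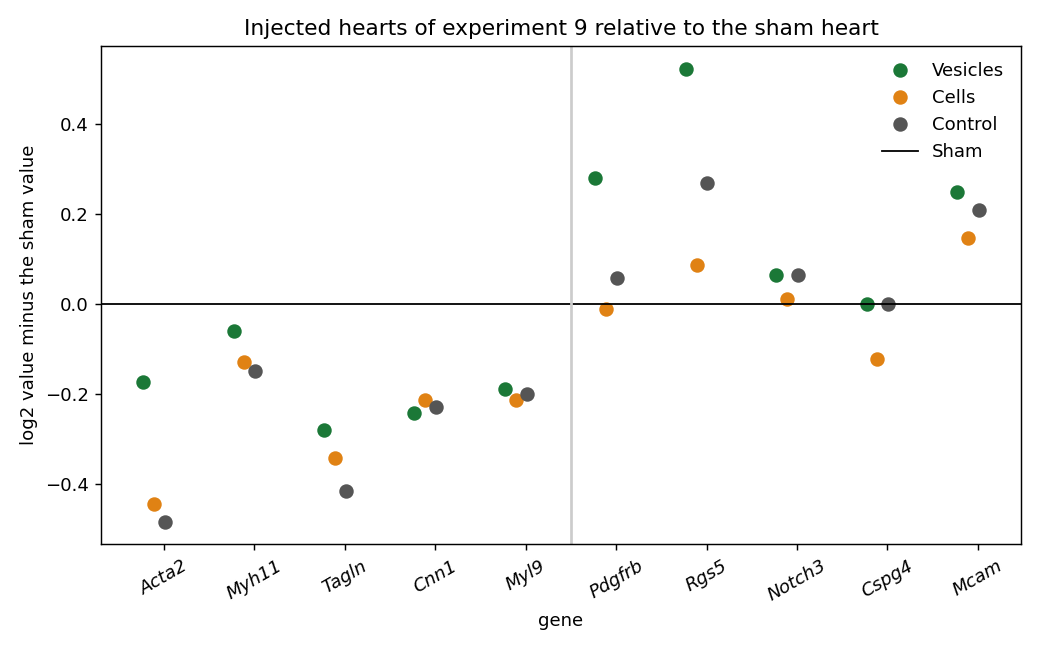
Log2 value of each injected heart of experiment 9 minus the value of the sham heart (y axis, horizontal line at 0) for the 10 markers (x axis, contractile genes left of the grey line). All points of the 5 contractile genes lie below the line and those of Rgs5, Notch3 and Mcam above it.

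Genes of a wider smooth muscle list lay mostly on the same side of 0 as the contractile markers. This list held 18 further genes, not all of the contractile apparatus, and 12 had a mean above background. Of all 18, 16 were above controls after vesicles (median 0.080) and 15 after cells (median 0.018), against 39.2% and 44.2% of all genes. In experiment 9, 16 were lower than in experiment 1 (median -0.080), while 41.8% of all genes were higher. Of the 18, 0 passed in any of these comparisons. Examples after vesicles were Smtn, the cytoskeletal protein smoothelin (0.062 ± 0.017), Cald1, the actin-binding caldesmon (0.14 ± 0.051), Pcp4l1 (0.12 ± 0.050) and Flna, the actin crosslinker filamin A (0.16 ± 0.070), each with adjusted p = 0.676. After cells Pcp4l1 stood at 0.15 ± 0.050 and Tpm2, beta tropomyosin, at 0.15 ± 0.080. Of 10 regulators of smooth muscle genes 5 were above controls after vesicles, with Srf at -0.016 ± 0.093, Mrtfb, a myocardin-related SRF coactivator, at 0.079 ± 0.033, and Hopx, a homeodomain-only protein, at -0.18 ± 0.063. Srf after cells stood at 0.098 ± 0.093, and 0 of the 10 passed. Acta1, the skeletal alpha actin gene whose product is nearly the same as that of Acta2, had values of 11.49 to 12.12 that differed by 0.11 ± 0.21 after vesicles and by 0.075 ± 0.17 between experiments.

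Of 13 further pericyte genes, 7 had a mean above background. Of all 13, 10 were above controls after vesicles (median 0.081) and 6 after cells (median -0.0081). In experiment 9, 9 were higher than in experiment 1 (median 0.026), and 0 passed in these comparisons. Over all genes the shares above 0 were 39.2%, 44.2% and 41.8% in the same order. Anpep, aminopeptidase N, stood at 0.11 ± 0.038 after vesicles, Steap4, a metalloreductase, at 0.28 ± 0.16 and Cd248, endosialin, at 0.12 ± 0.070. After cells Steap4 stood at 0.29 ± 0.16. Between experiments, Abcc9, a sulfonylurea receptor subunit of potassium channels, stood at 0.27 ± 0.070 (adjusted p = 0.316) and Cd248 at -0.31 ± 0.056 (adjusted p = 0.255). Cardiomyocyte markers were also higher in experiment 9 for 9 of 9 genes, and their part in the Abcc9 value was not tested. Of the ligands of Pdgfrb, Pdgfb differed by 0.084 ± 0.060 after vesicles and 0.053 ± 0.060 after cells, and Pdgfd by 0.043 ± 0.058 and 0.0091 ± 0.058. Among 14 other genes of the Notch pathway, 9 of them with a mean above background, 6 were above controls after vesicles and 11 after cells, with 0 passing. Dll4, an endothelial Notch ligand, stood at -0.086 ± 0.032 after vesicles and Jag1, the ligand in smooth muscle and endothelium, at 0.032 ± 0.023. In the angiopoietin and sphingosine 1-phosphate group, with 4 of 7 means above background, 6 of 7 genes were above controls after either treatment, with 0 passing. S1pr1, the endothelial sphingosine 1-phosphate receptor that steadies contacts with pericytes, stood at 0.25 ± 0.099 after vesicles and 0.40 ± 0.099 after cells (adjusted p = 0.682), and read 7.68, 7.69 and 7.69 after vesicles, 7.58, 7.93 and 8.02 after cells, 7.37 and 7.46 in controls and 7.74 in the sham heart. Of 7 other Rgs genes only Rgs4 had a mean above background, and it differed by 0.17 ± 0.15 after vesicles.

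Genes were compared by the root mean square difference of log2 values centred on each gene's mean. The genes nearest to Acta2 over the 9 arrays were sought among 6659 genes with a mean above background. They were Thbs1, thrombospondin 1 (0.19), Meox1, a homeobox transcription factor (0.24), Rcan1, a regulator of calcineurin (0.24), Gfpt2, an enzyme of the hexosamine pathway (0.25), and Sfrp1, a secreted Wnt antagonist (0.26), where Acta2 itself had a root mean square deviation of 0.47. Thbs1 read 7.80, 8.43 and 8.53 after vesicles, 7.57, 8.01 and 8.93 after cells, 7.22 and 8.08 in controls and 8.14 in the sham heart. Rcan1 read 9.75, 10.25 and 10.11 after vesicles, 9.58, 10.40 and 10.57 after cells, 9.35 and 10.08 in controls and 9.95 in the sham heart. In both, as in Acta2, the experiment 9 array was the lowest of each injected group. The genes nearest to Pdgfrb, whose own deviation was 0.11, were Lamc1, the laminin gamma 1 chain of basement membranes (0.045), Cd34, a surface sialomucin of endothelial and stromal cells (0.048), the predicted gene Gm6485 (0.052), Tmem204 (0.058) and Sparcl1, a matricellular protein (0.059). Cd34 read 9.34, 9.31 and 9.30 after vesicles, 9.10, 9.21 and 9.26 after cells, 9.24 and 9.12 in controls and 9.18 in the sham heart, with its 3 vesicle arrays the highest of the 9. These matches are a description only.

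**Figure D5:**
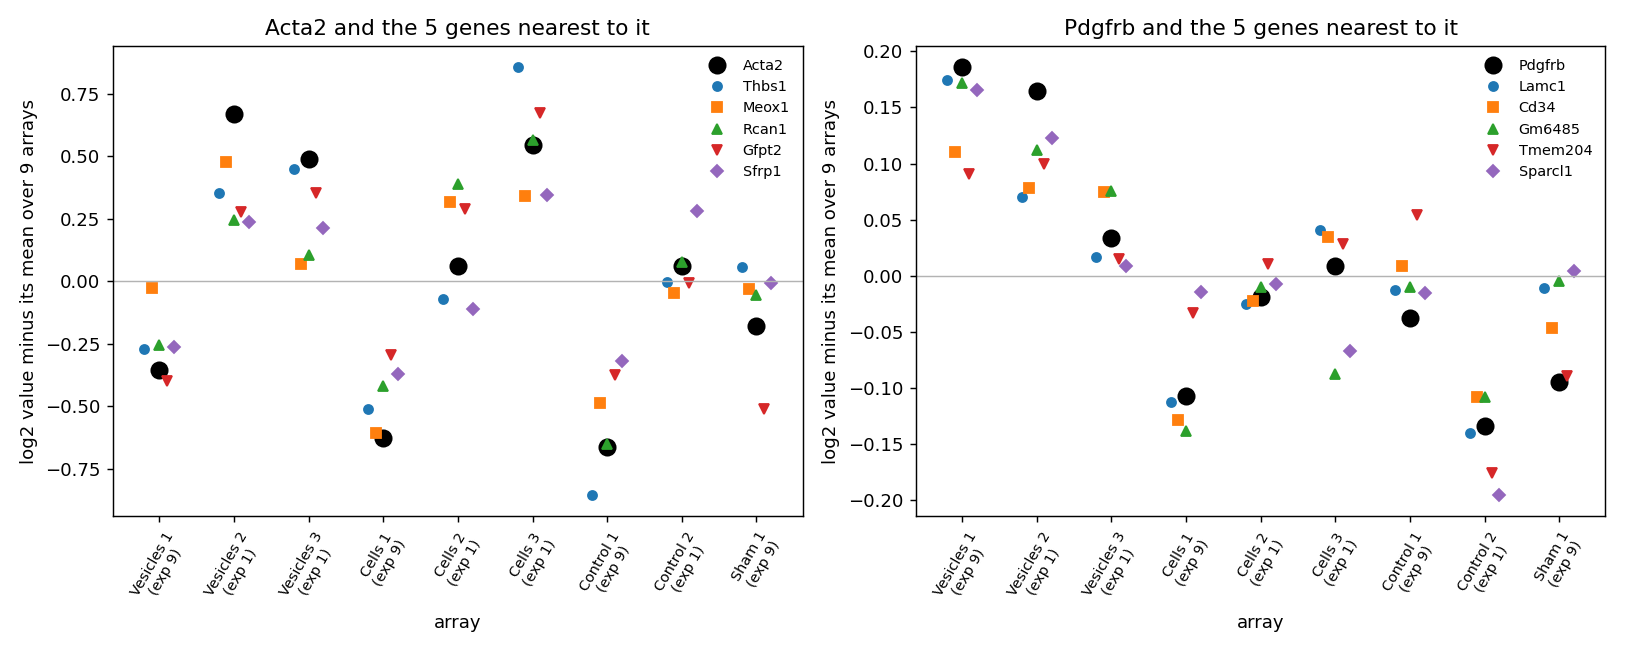
Log2 value minus its mean over 9 arrays (y axis) on each array (x axis, with the experiment in brackets) for Acta2 and for Pdgfrb (large black points) and the 5 genes nearest to each (small coloured symbols). Acta2 and its neighbours are lower on vesicle array 1, cell array 1 and control array 1 than on the experiment 1 arrays of the same group, and Pdgfrb and its neighbours are highest on vesicle array 1 but for Tmem204, which is highest on vesicle array 2.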

How the data were processed

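RNA of whole frozen hearts was prepared with Trizol and biotin-labelled for Affymetrix arrays, per the labels. The authors deposited 1 normalized log2 value per probe set and array. The log2 scale was read from the values (1.55 to 14.2), and how they were background-corrected, summarised and normalized was not given in the sources used. Partek is named, with no role, in the submitters' processing notes. Of 80202 probe sets 32750 had an annotation, 30604 naming 1 gene symbol. The 2146 naming several were left out. Entrez numbers matched to RefSeq GRCm38.p6 (22818) updated old symbols. Where a gene had several probe sets the one with the highest mean was taken, giving 30142 genes, of which 61.1% have an equal value on 3 or more arrays.

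Limma 3.58.1 (lmFit, eBayes; R 4.3.3) was fitted to the 8 injected arrays with treatment means and experiment as a block, leaving 4 residual degrees of freedom. P-values are two-sided and Benjamini-Hochberg adjusted over all genes, with a threshold of 0.05, and errors of differences are standard errors. Arrays carry no read depth, so their number limits precision. The fit was also run on simulated data with independent normal noise, no ties and planted differences larger than any fitted for a marker. That run does not show how the fit performs at differences of the size seen here. Members and lists were chosen with earlier results of these data known. All 10 markers are named, and from each other list at most 4 genes per comparison, those of lowest unadjusted p among genes above background, plus the 5 genes nearest to Acta2 and to Pdgfrb. A value quoted for such a gene in another comparison was added for context after it was seen. So were the Sftpc values, the regulator and marker list values beside the cell arrays, and the search for substituted CArG boxes. The alternatives were other blocks, scalings, filters, probe set rules and variance models, single arrays left out, experiment 1 alone, and the sham array counted as a control.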

Additional observations from a re-analysis of the deposited data

How the results depend on the processing

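No marker was called under any setting (with the main fit counted, 20 settings for each treatment comparison, 17 for the experiments and 4 for each interaction). Of the marker differences recomputed, 173 of 186 for vesicles against control, 180 of 186 for cells against control, 172 of 186 for vesicles against cells, 150 of 156 between experiments and 29 of 30 in each interaction kept direction and call. Acta2 and Pdgfrb after vesicles kept their direction when single arrays were left out (0.31 to 0.52 and 0.16 to 0.26). Causes of the changes below were not tested. With the VTS number as block, vesicles against control gave -0.030 for Cnn1 and -0.0040 for Notch3. Quantile scaling gave Notch3 -0.011 for vesicles against control, Tagln 0.0033 for vesicles against cells, Pdgfrb -0.019 between experiments, and interactions of 0.0049 (vesicles, Notch3) and 0.0073 (cells, Cspg4). Median centring gave Notch3 0.0069 for cells against control and 0.013 between experiments, and Mcam -0.0012 for vesicles against cells. Experiment 1 alone gave Rgs5 -0.12 and Mcam -0.041 for vesicles against cells. With the sham array among the controls, Tagln and Cnn1 stood at -0.013 and -0.068 after vesicles, and Acta2 and Tagln at -0.0062 and -0.011 after cells.

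Leaving out single arrays, vesicles against control ranged from -0.062 to 0.068 for Cnn1, -0.040 to 0.23 for Myl9, -0.052 to 0.18 for Rgs5, -0.014 to 0.014 for Notch3 and -0.0080 to 0.21 for Mcam. Cells against control ranged from -0.0068 to 0.13 for Pdgfrb, -0.030 to 0.23 for Rgs5 and -0.015 to 0.20 for Mcam. Vesicles against cells ranged from -0.070 to 0.039 for Myh11, -0.034 to 0.049 for Tagln, -0.15 to 0.043 for Myl9, -0.095 to 0.15 for Rgs5 and -0.062 to 0.072 for Mcam, and Pdgfrb between experiments from -0.017 to 0.091. Over all genes, where limma called 0, leaving out single arrays gave 0 to 823 calls for vesicles and 0 to 901 for cells against control, the highest without control array 1. Experiment 1 alone, with 1 control array, gave 1662 and 1731. Least squares without moderation gave 4 for vesicles against control, 2 between experiments, and 2936 (vesicles) and 2917 (cells) for the interactions. The sham array among the controls gave 1 for cells against control, and leaving out tied genes gave 2 between experiments. The labels number every array as replicate 1, so no block by replicate number could be fitted; the VTS number in the titles, which matches arrays across treatments, was the block in the alternative given above.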
